A study of Homo sapiens with 2 samples.

Results

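The triple-detected cells were 581 cells of a day 14 culture in which transcripts of all 3 coreceptor genes of the αβ T cell lineage were found together. A cell was counted when it held at least 1 UMI of *CD4*, at least 1 of *CD8A*, at least 2 of *CD8B* and under 30 of *GNLY*. A UMI, or unique molecular identifier, stands for 1 captured transcript. The 581 cells were 6.51% of the 8929 cells kept from the day 14 library (95% exact binomial interval 6.004 to 7.04%) and part of 21043 cells kept from both libraries of the series. They were chosen by measured UMIs, so that the levels of the 4 rule genes describe the choice and are no result.

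All cells derived from H1, a human embryonic stem cell line. The stem cells were differentiated into hematopoietic cells for 12 days, and the resulting CD34+ cells were moved onto OP9-DLL4, a mouse stromal line that carries the Notch ligand DLL4, with SCF, Flt3L, IL-7 and ascorbic acid in the medium. CD7+ cells were sorted after 10 or 14 days of this co-culture, and 1 droplet-based 3′ library was sequenced per day. A single line, a single culture per day and a stroma without a thymic epithelium limit the cells as a model of thymocytes. With 1 library per day there is no replicate, and no p-value is given. Intervals cover counting error only, and cells of 1 library are not replicates of the culture.

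In the thymus, *CD4* and the 2 chains of the CD8 receptor, encoded by *CD8A* and *CD8B*, are present together in double-positive thymocytes of the cortex. The preceding step is β-selection, in which a T cell receptor β chain rearranged by the RAG1 and RAG2 recombinase pairs with pre-Tα, the product of *PTCRA*, and the cells divide. RAG is then used again to rearrange the α chain. Double-positive cells later lose one coreceptor during selection, under factors such as ThPOK (*ZBTB7B*), GATA3 and RUNX3. *GNLY*, the gene of granulysin, marks cytotoxic cells, and the limit on it kept strongly NK/NKT-like cells out of the comparison.

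The comparison was made within the 5044 day 14 cells with at least 2 *CD8B* UMIs and under 30 *GNLY* UMIs. Of these, 581 (11.5%) held both *CD4* and *CD8A*, 850 (16.9%) only *CD4*, 1199 (23.8%) only *CD8A* and 2414 (47.9%) neither. Cells with neither were the comparators. Each triple-detected cell was paired with the comparator nearest in total UMIs, which gave 581 pairs with 10844417 and 10842477 UMIs in all and a largest gap of 1.94% within a pair. At day 10 the same rule found 13 of 12114 cells (0.107%, 0.0572 to 0.183%), or 2.88% of the 451 cells there with the *CD8B* and *GNLY* limits met. These 13 cells were too few to describe further.

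*CD4* and *CD8A* were found at very low counts. A triple-detected cell held between 1 and 9 *CD4* UMIs, with a median of 1, and between 1 and 17 *CD8A* UMIs, with a median of 2. In 163 of the 581 cells (28.1%) both genes had exactly 1 UMI. *CD8B* ranged from 2 to 50 UMIs with a median of 10, against 2 to 41 with a median of 5 in the matched comparators. Only 17 triple-detected cells sat at the limit of 2 *CD8B* UMIs, and 9 cells with 1 *CD8B* UMI met every other condition. UMIs of a group of cells were summed and scaled to 1 common total (CPM). *RAG1* was at 94.5 CPM in those 17 cells and 163 in those 9, *PTCRA* 169 and 207, and *NKG7*, a gene of cytotoxic granules, 678 and 339. *GNLY* had no UMI in 370 of the 581 cells. It reached 5 UMIs in 4 of them and in 90 of the 2414 comparators, while 15 cells were left out for 30 or more *GNLY* UMIs alone.

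**Figure D1:**
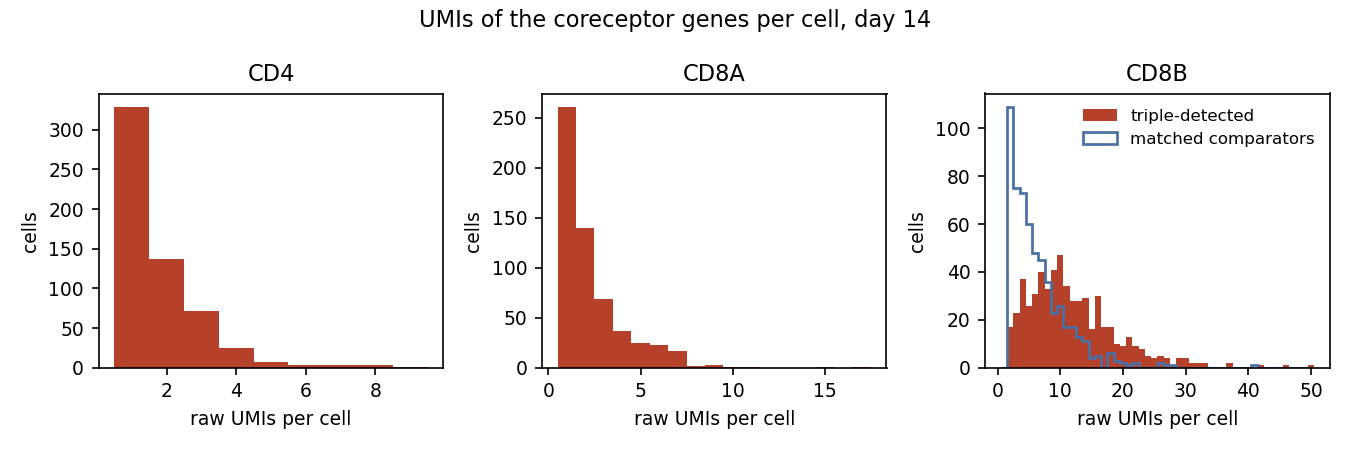
Number of cells (vertical axis) by raw UMIs per cell (horizontal axis) of *CD4*, *CD8A* and *CD8B* in the 581 triple-detected cells (filled) and, for *CD8B*, in the 581 matched comparators (outline). The most frequent count is 1 for *CD4* (329 cells) and for *CD8A* (261 cells), and the *CD8B* counts of both groups overlap over most of their range, with medians of 10 and 5.

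Free RNA in the droplets can add to such counts. In barcodes with under 100 UMIs, taken as free of cells, *CD4* stood at 18.9 CPM, *CD8A* at 34.1 and *CD8B* at 222, against 95.2, 127 and 636 in the triple-detected cells. In the 1468 cells with 30 or more *GNLY* UMIs *CD4* stood at 3.11 CPM, *CD8A* at 43.1 and *CD8B* at 74.5. After each cell was thinned to 5000 UMIs, 0.870% of those cells still held a *CD4* UMI and 16.9% a *CD8A* UMI, with a median depth of 11425.5 UMIs before thinning against 16616 in the triple-detected cells. For each *CD4* UMI there were 6.68 *CD8B* UMIs in the triple-detected cells, 11.7 in the cell-free barcodes and 23.9 in the cells high in *GNLY*. The rule requires *CD4* and *CD8A* in every triple-detected cell, so their higher levels and the lower ratio there follow from the choice. The part of free RNA in single *CD4* and *CD8A* UMIs was not tested.

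*CD4* and *CD8A* were found together slightly more often than their separate frequencies give. Both are rule genes, so the ratios below describe how the rule meets depth and are no result. Of the 5044 cells, 28.4% held *CD4* and 35.3% held *CD8A*, which gives 505 cells with both if the genes were independent, so that the 581 found were 1.15 times that number. With the cells divided by depth into 4 bins of 1261 cells, the ratio was 1.17, 1.12, 1.06 and 1.28 from the shallowest bin to the deepest. At 5000 UMIs per cell it was 1.40, with 161 cells found for 115. Deeper cells did not hold *CD4* more often, since its share was 33.1% in the shallowest bin and 23.9% in the deepest.

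The label is one of transcripts, and markers of double-positive thymocytes differed to unequal degrees. All 9 markers used here stood at 10 CPM or more. Their summed level was 5222 CPM in the triple-detected cells and 4273 CPM in the comparators. It was 3118 CPM in the cells high in *GNLY* and 4417 CPM in the cell-free barcodes. *CD3D* alone was at 2531, 2469, 2210 and 2930 CPM in the same order, and *CD3E* at 691, 618, 617 and 498 CPM. The sum therefore says little about a double-positive state. *RAG1* was at 204 against 75.8 CPM in the comparators and *PTCRA* at 379 against 183 CPM. *TRAC*, the constant segment of the α chain, was at 31.4 CPM in the triple-detected cells and 30.1 CPM in the comparators. *DNTT*, the template-independent polymerase of rearranging thymocytes, had no UMI in either matched group, and 3 counts, taken as the limit that a count of 0 allows, correspond to 0.277 CPM. The cells are therefore called by the rule.

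Markers of other cell types were present to unequal degrees. The 10 NK/NKT markers, *GNLY* among them, summed to 329 CPM in the triple-detected cells and 755 CPM in the comparators. Their sum was 19940 CPM in the cells high in *GNLY* and 3247 CPM in the cell-free barcodes. *GNLY*, a rule gene that also sets the group high in it, made up 29.8, 55.1, 13822 and 1701 CPM of these sums in the same order. Outside *GNLY*, 260 of the 581 cells held at least 3 UMIs of these genes. Monocyte and dendritic cell markers summed to 5.53 CPM against 10.3 in the comparators, with *CD14*, *CSF1R*, *C1QA* and *MPEG1* at 0. Markers of megakaryocyte, erythroid and mast cell progenitors summed to 1.48 against 1.94 CPM with *GATA2* at 0, stromal and endothelial markers to 2.03 against 2.12 CPM with *CLEC14A* at 0, ILC2 markers to 7.84 against 28.6 CPM, and progenitor markers to 74.3 against 83.7 CPM, of which *IGLL1* made up 66.8 and 78.4. Doublet calls here are the 638 highest Scrublet scores of the day 14 library, since Scrublet's own threshold called 0 cells. Among the triple-detected cells 71 (12.2%) were called doublets, against 40 (6.88%) of the matched comparators. The median score was nevertheless lower in the triple-detected cells, at 0.0382 against 0.0453. The calls rose with depth, from 0 of 145 in the shallowest of 4 depth bins of triple-detected cells to 56 of 146 (38.4%) in the deepest, where 24 of 146 comparators (16.4%) were called. Between the days, 29 kept barcodes were shared.

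Against their matched comparators, the triple-detected cells carried more RNA of the recombinase, of the pre-T cell receptor and of genes of cortical thymocytes, and less of cytotoxic and NK/NKT genes. Of 5852 genes at 20 CPM or more in either group, 98 (1.67%) were at least 1.5-fold higher and 83 (1.42%) at least 1.5-fold lower, on a scale with 5 CPM added, 181 (3.09%) in all, and the median log2 ratio of all these genes was 0.02. *CD8B*, a rule gene left out of these counts, was 1.87-fold higher. When comparators were also paired on *CD8B* UMIs, 28 genes (0.483%) were higher and 11 (0.190%) lower. When both groups were restricted to the cells with a *RAG1* or *RAG2* UMI, 36 genes (0.616%) were higher and 10 (0.171%) lower in 508 pairs.

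**Figure D2:**
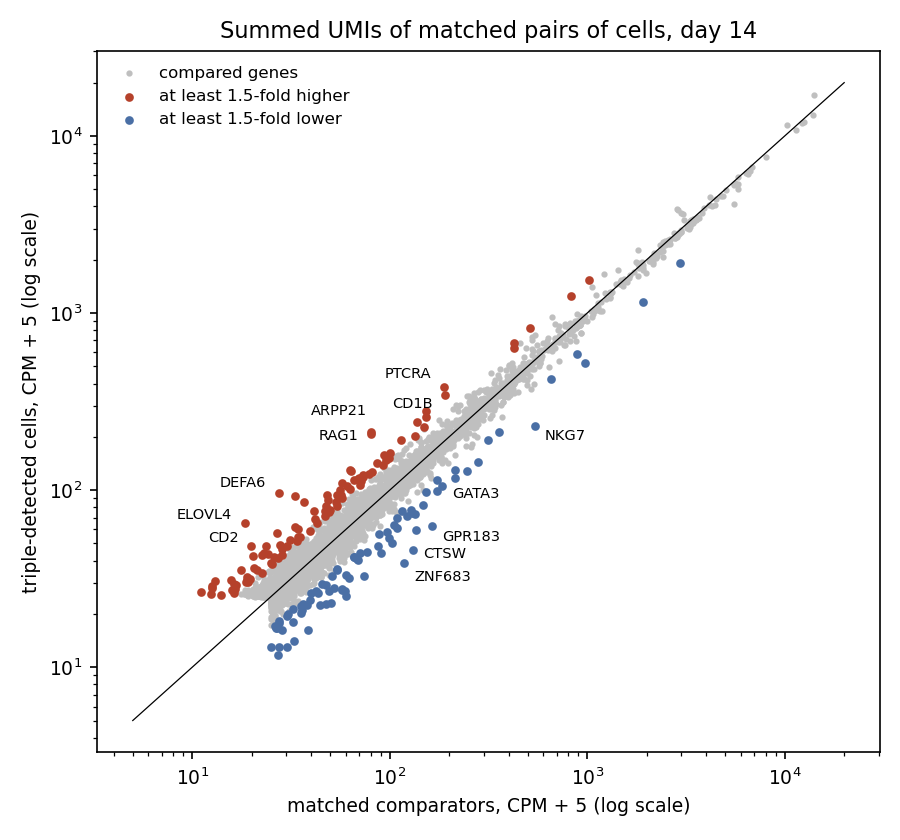
Summed level of each of the 5852 compared genes in the 581 matched comparators (horizontal) and the 581 triple-detected cells (vertical), as CPM with 5 added on log axes, with the line of equal levels. The 98 genes at least 1.5-fold higher lie above the line and include *ELOVL4*, *RAG1* and *PTCRA*, and the 83 at least 1.5-fold lower lie below it and include *NKG7*, *CTSW* and *ZNF683*.

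Both recombinase genes were higher over the 581 pairs, but not past the 1.5-fold limit in cells without a UMI of 7 NK/NKT genes. *RAG1* ranged from 0 to 48 UMIs in a triple-detected cell with a median of 3, and from 0 to 18 with a median of 0 in a comparator. Its summed level was 204 CPM (195 to 212) against 75.8 CPM (70.7 to 81.2), a log2 ratio of 1.37. *RAG2* had a median of 1 UMI against 0 and a level of 71.2 against 36.4 CPM, a log2 ratio of 0.88. In these 108 pairs (without *GNLY*, *NKG7*, *CTSW*, *ZNF683*, *KLRB1*, *PRF1* and *CXCR3*), *RAG1* had a ratio of 0.45 and *RAG2* of 0.091. The triple-detected cells of these pairs were also shallower, with a median of 9363 UMIs against 16616 over all 581. In the shallowest of 4 depth bins of all pairs the 2 ratios were 0.89 and 0.58. With *CD8B* also matched they were 0.74 and 0.48. Single cells of both groups overlapped, since 112 triple-detected cells and 339 comparators had no *RAG1* UMI. At 5000 UMIs per cell 56.0% of the triple-detected cells (51.8 to 60.2%) and 25.04% of the comparators (21.5 to 28.8%) held *RAG1*, with 80.7% and 41.7% before thinning and 3.33% in the thinned cells high in *GNLY*. The genes that repair the broken ends in every cell differed little. *XRCC5*, *XRCC6*, *PRKDC*, *XRCC4* and *DCLRE1C* had log2 ratios between -0.12 and 0.07, and the RAG cofactors *HMGB1* and *HMGB2* lay at 0.24 and 0.45. Of the 9 compared genes of the V(D)J list 2 were higher, 0 lower, and its median was 0.07.

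Among the receptor chains *PTCRA* and *TRBC1* were higher, and *TRAC* differed by less than its counting error. *PTCRA* ranged from 0 to 48 UMIs with a median of 5, against 0 to 29 with a median of 1, and its level was 379 against 183 CPM, a log2 ratio of 1.03. Its ratio was below the limit with *CD8B* also matched (0.46), in cells with a *RAG1* or *RAG2* UMI (0.50) and in cells without a UMI of the 7 NK/NKT genes (0.15). The β chain gene *TRBC1* was at 676 against 420 CPM (log2 ratio 0.68) and its near-identical neighbor *TRBC2*, with which it may exchange reads, at 669 against 453 CPM (0.56), below the 1.5-fold limit. *TRDC* of the δ chain was at 690 against 874 CPM (-0.34) and *TRGC1* of the γ chain at 120 against 155 CPM (-0.36). *TRAC* had a log2 ratio of 0.06 with an interval from -0.15 to 0.26, and over all alternatives it ranged from -0.15 in cells without a RAG UMI to 1.59 in cells without a UMI of the 7 genes. Of the 7 chain genes 2 were higher and 0 lower, with a median of 0.06. The CD3 genes, whose products carry the receptor signal, lay between -0.38 for *CD247* and 0.16 for *CD3E*, with 0 of 4 past the limit and a median of 0.09.

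**Figure D3:**
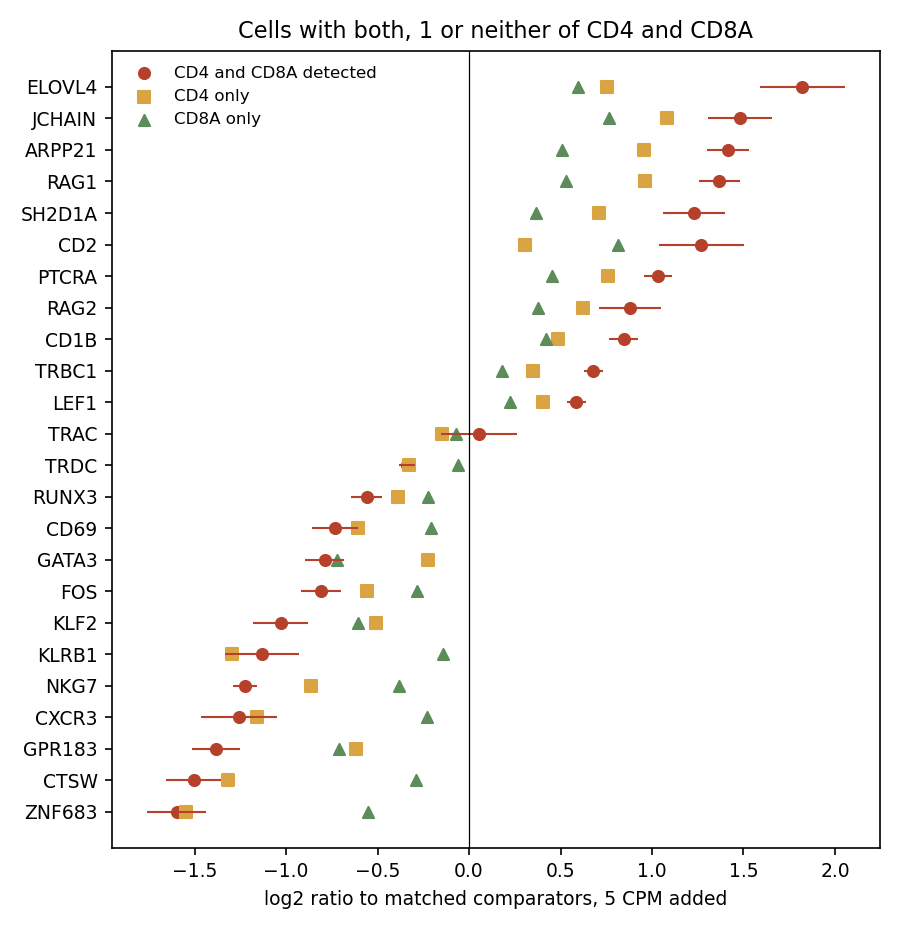
Log2 ratio to the matched comparators (horizontal, 5 CPM added to both levels) of 24 genes in cells with both *CD4* and *CD8A* (circles, lines are 95% counting intervals), with *CD4* only (squares) and with *CD8A* only (triangles). All 3 groups share the comparators. Circles of *ELOVL4*, *RAG1* and *PTCRA* lie right of 1, those of *NKG7*, *CTSW* and *ZNF683* left of -1, and squares of *CTSW* and *ZNF683* lie close to their circles.

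Of 16 compared genes of cortical thymocytes 11 were higher and 0 lower, with a median log2 ratio of 0.74 against 0.02 over all genes. This list, like the other lists, was chosen with earlier results of these data known, so its counts are a description and test nothing. *ELOVL4*, an elongase of very long fatty acids, had the highest ratio of all genes compared, at 60.2 against 13.5 CPM (log2 ratio 1.82), although 396 of the 581 triple-detected cells and 507 comparators had no UMI of it. *ARPP21*, an RNA-binding protein, had a median of 3 UMIs against 0 and stood at 209 against 75.3 CPM (1.41). *JCHAIN*, the joining chain of polymeric immunoglobulins, was at 87.9 against 28.3 CPM (1.48), and *SH2D1A*, the adaptor SAP, at 81.1 against 31.7 CPM (1.23). The antigen-presenting CD1 molecules followed, with *CD1B* at 338 against 186 CPM (0.85), *CD1A* at 27.2 against 13.9 CPM (0.77) and *CD1C* at 71.4 against 42.1 CPM (0.70), while *CD1E* at 950 against 661 CPM (0.52) stayed under the limit. *MAL*, a membrane raft protein, at 274 against 147 CPM (0.88), the water channel *AQP3* at 99.96 against 56.0 CPM (0.78), the E protein *TCF12* at 158 against 94.8 CPM (0.70) and *CD99* (0.60) made up the 11. The 5 genes of the list between 0.12 and 0.52 were *CD1E*, *SATB1*, *CD38*, *CHI3L2* and *SMPD3*. With *CD8B* also matched the median of the list was 0.45, and in cells without a UMI of the 7 NK/NKT genes it was 0.44. *CD1A* and *CD1B* were under the limit in both settings, and *JCHAIN* in the second, at 0.48.

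The start regions of *RAG1*, *PTCRA* and *ELOVL4* are shown because these 3 genes carry the recombinase, pre-receptor and cortical parts of the difference and because the E protein gene *TCF12* was higher beside them. E proteins bind E-boxes, spelled CANNTG, and capitals mark every match on either strand. The RefSeq windows (GRCh38.p14) hold up to 250 bases before the start, written 5′ to 3′ on the strand of the gene, and bases inside the GENCODE gene were left out. The window of *RAG1* lies at chr11:36510103-36510352 on the plus strand, that of *PTCRA* at chr6:42915803-42915988 on the plus strand and that of *ELOVL4* at chr6:79947554-79947803 on the minus strand. Whether these starts are the ones used in these cells was not tested.
RAG1: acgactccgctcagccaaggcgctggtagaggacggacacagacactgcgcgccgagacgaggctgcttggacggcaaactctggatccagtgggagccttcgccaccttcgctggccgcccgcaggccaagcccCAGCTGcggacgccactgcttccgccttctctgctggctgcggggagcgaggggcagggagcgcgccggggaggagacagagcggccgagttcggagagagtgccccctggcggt
PTCRA: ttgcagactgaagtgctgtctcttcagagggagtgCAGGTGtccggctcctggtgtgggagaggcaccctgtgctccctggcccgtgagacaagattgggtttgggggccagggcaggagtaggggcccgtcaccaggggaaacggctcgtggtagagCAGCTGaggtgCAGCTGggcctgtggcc
ELOVL4: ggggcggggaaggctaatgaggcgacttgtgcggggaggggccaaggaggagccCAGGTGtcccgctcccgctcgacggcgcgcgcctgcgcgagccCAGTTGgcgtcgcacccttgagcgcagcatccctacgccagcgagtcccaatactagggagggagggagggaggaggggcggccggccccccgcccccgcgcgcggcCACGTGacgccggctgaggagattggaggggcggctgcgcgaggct
The windows, of 250, 186 and 250 bases, hold 1, 3 and 3 matches. A CANNTG is common, since 61.8% of 35116 windows of 250 bases hold one. The form CAGCTG, found in 14.0% of windows, occurs 1 time for *RAG1* and 2 times for *PTCRA*, and CAGGTG, found in 17.5%, occurs 1 time each for *PTCRA* and *ELOVL4*. The RUNX motif TGTGGT, found in 11.0% of windows on either strand, has 0 matches in the 3 sequences. These are matches of letters, and no binding was measured.

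*DEFA6*, an α-defensin known from Paneth cells, was at 91.4 against 22.5 CPM (log2 ratio 1.81), yet 526 of 581 triple-detected cells had no UMI of it and 1 cell held 229 of the 991. In the comparators 561 cells had none and 1 cell held 93 of the 244. Without these 2 cells the levels were 70.4 and 14.0 CPM. *CD2*, the adhesion receptor of T cells, was at 43.1 against 14.9 CPM (1.27), with no UMI in 349 triple-detected cells and 480 comparators. Its ratio was 0.56 in cells without a UMI of the 7 NK/NKT genes. The peptide receptor *VIPR2* (1.26), the lipid transfer protein *PITPNM2* (1.23), the cadherin *FAT1* (1.19), the calcium channel *ITPR2* (1.05) and the RNAs *LINC01226* (1.16), *LINC00632* (1.09) and *AP005482.1* (1.07) completed the highest ratios, together with *AL035587.3* (1.05), which neighbors *PTCRA* and may share reads with it.

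Genes of cytotoxic and NK/NKT cells were lower. Of 9 compared genes 8 were lower and 0 higher, with a median of -1.13. *NKG7* ranged from 0 to 76 UMIs with a median of 1, against 0 to 62 with a median of 7, and its level was 227 against 536 CPM, a log2 ratio of -1.22. It stood at 3097 CPM in cells high in *GNLY* and at 962 CPM in cell-free barcodes. *ZNF683*, the transcription factor Hobit, was at 34.0 against 113 CPM (-1.60), the protease *CTSW* at 41.1 against 126 CPM (-1.51), the chemokine receptor *CXCR3* at 20.2 against 55.2 CPM (-1.26) and the receptor CD161, *KLRB1*, at 22.0 against 54.2 CPM (-1.13). The granzyme *GZMM* (-1.07), perforin *PRF1* (-0.97) and *FCER1G* (-0.66) were the other 3, and *ZBTB16*, encoding PLZF, lay at -0.47. Groups overlapped, since 487 triple-detected cells and 412 comparators had no *ZNF683* UMI. The median of the list was -0.32 with *CD8B* also matched and -0.19 in cells with a *RAG1* or *RAG2* UMI. *ZNF683*, *CTSW*, *CXCR3* and *KLRB1* were under the limit in both settings, and *NKG7* in the second, at -0.58.

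The lowest ratios outside that list were found for *GPR183*, an oxysterol receptor, at 57.6 against 158 CPM (-1.38), the serine protease *PRSS57* at 54.9 against 131 CPM (-1.19) and the cytokine oncostatin M, *OSM*, at 27.7 against 69.3 CPM (-1.18). *GPRC5C* (-1.25), *CLIC3* (-1.22), *TNFRSF18* (-1.21), *DOK2* (-1.21), *TIMP1* (-1.12), *TNFRSF1B* (-1.09) and *MYO1F* (-1.08) completed the 15. All of these stood higher in the cells high in *GNLY* than in the comparators except *OSM*, at 32.7 CPM there. In the 108 pairs of cells without a UMI of 7 NK/NKT genes, *GPR183* had a ratio of 0.27 and *CLIC3* of 0.31, and *GPRC5C*, *TNFRSF18*, *DOK2* and *PRSS57* were under the limit, between -0.42 and -0.089.

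Of the 11 compared genes of the early response to receptor signals 4 were lower and 0 higher, 7 did not pass the limit, 1 of them with a ratio above 0, and the median was -0.50. *FOS* stood at 93.8 against 168 CPM (-0.81), *FOSB* at 35.1 against 64.0 CPM (-0.78), *CD69*, the early activation antigen, at 71.9 against 123 CPM (-0.73) and the phosphatase *DUSP6* at 64.3 against 104 CPM (-0.65). *NR4A1* and *EGR1*, which report receptor strength, were at 0.922 and 7.10 CPM, below the limit for comparison. Of 19 compared genes of the proximal pathway *CD2* alone was past the limit, and the median was 0.01, with *LCK* at 0.15 and *LAT* at -0.35. Of 10 genes of selection and maturation 2 were lower, *CD69* and *KLF2*, a factor of egress from the thymus, at 45.2 against 97.4 CPM (-1.03), with a median of -0.18.

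Factors of the CD4 and CD8 lineages differed among themselves. *GATA3* was lower, at 101 against 178 CPM (-0.79), with a median of 1 UMI against 2. *RUNX3* stood at 171 against 254 CPM (-0.56), and *RUNX1* at 23.6 against 16.0 CPM (0.44). *ZBTB7B* had 1 UMI over all triple-detected cells. *LEF1*, a partner of TCF1, was higher at 633 against 420 CPM (0.59), and *TCF7*, encoding TCF1, stood at 453 against 319 CPM (0.50). Of the 11 compared genes 1 was higher and 1 lower, with a median of 0.20. In the commitment list, *LEF1* and *TCF12* were higher and *GATA3* lower of 18, with a median of 0.02 and *NOTCH1* at 0.03. Of 5 E protein and ID genes *TCF12* and the inhibitor *ID1* (0.66) were higher, with a median of 0.35. *GATA3* lay at 0.69 in the pairs without a UMI of 7 NK/NKT genes, and *KLF2* at 0.27. With *CD8B* also matched they lay at -0.33 and -0.44.

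Genes of cell division were slightly above their comparators as a group without passing the limit. All 20 mitotic genes had ratios above 0 with a median of 0.32, as *TOP2A* at 630 against 485 CPM (0.38), and 0 were past the limit. The median was -0.25 when the rule was applied after thinning, -0.053 in cells without a UMI of the 7 NK/NKT genes and -0.40 among cells without a *RAG1* or *RAG2* UMI. With the rule after thinning the groups were not matched, and their cells had medians of 10439 and 16297 UMIs before it. DNA replication had 0 of 18 past the limit and a median of 0.09. Of 10 compared histone genes 1, *HIST1H2AC*, was higher, with a median of 0.38. By phase calls on thinned cells 25.4% of the triple-detected cells were in G1, 34.0% in S and 40.6% in G2M, against 30.6%, 35.7% and 33.7% of the comparators. The intervals of the G2M shares, 36.5 to 44.8% and 29.8 to 37.8%, overlapped between 36.5 and 37.8%. Such an overlap does not test the difference of the shares. Of the triple-detected cells, 119 lay within 0.05 of a limit between phases.

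*BCL2L1*, which keeps double-positive thymocytes alive, was at 88.4 against 51.6 CPM (0.72), and *TP53INP1*, a stress-response gene, at 30.4 against 12.6 CPM (1.01), the 2 higher genes of 9 compared for survival and death (median 0.10). Of 12 homing and adhesion genes *CD99* was higher and *CXCR3* and *ITGB7* (-0.81) lower (median 0.10), while *CCR9*, the receptor that draws cells to the thymus and gut, was at 27.8 against 35.5 CPM (-0.31) and *CXCR4* at 217 against 145 CPM (0.57). MHC class I genes had 0 of 12 past the limit (median -0.06), ribosome biogenesis 0 of 15 (-0.03), cytokine receptors 0 of 6 (-0.03) and chaperones 0 of 12 (-0.04). In glycolysis 1 of 17 was lower, the lactate carrier *SLC16A3* (-0.83), with a median of -0.03, and in the interferon list 1 of 7, *IFITM2* (-0.72), with a median of -0.07. Of 3 compared progenitor genes *BCL11A* was higher (0.88, median 0.35). The lists of monocyte and ILC2-like genes had 1 compared gene each, *AIF1* (-0.01) and *PTGDR2* (-0.38), and those of MEMP (megakaryocyte, erythroid and mast cell progenitors) and of stroma had 0.

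Cells with only 1 of the 2 genes lay closer to the comparators. The *CD4* only cells (578 matched) had 23 genes (0.399%) higher and 34 (0.590%) lower than the comparators, and the *CD8A* only cells (581 matched) 12 (0.208%) and 15 (0.260%). All these groups share the comparators. Set directly against the *CD4* only cells, the triple-detected cells had 9 genes (0.155%) higher and 6 (0.104%) lower, and against the *CD8A* only cells 22 (0.376%) and 32 (0.546%). *RAG1* stood at 204 CPM with both genes, 152 with *CD4* only, 112 with *CD8A* only and 75.8 with neither, and *ARPP21* at 209, 151, 109 and 75.3 CPM. *ELOVL4* stood at 60.2, 26.1, 22.9 and 13.5 CPM. *CD2* went the other way between the single groups, with 19.6 CPM in *CD4* only and 30.1 CPM in *CD8A* only cells.

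Several of the lower genes were low in both groups with *CD4*. *ZNF683* stood at 34.0 CPM with both genes and 35.4 with *CD4* only, but at 75.6 with *CD8A* only and 113 with neither. *CTSW* (41.1, 47.6, 102 and 126 CPM), *CXCR3* (20.2, 22.0, 46.5 and 55.2 CPM) and *KLRB1* (22.0, 19.2, 48.6 and 54.2 CPM) were likewise low in both, each value given in the same order. *GATA3* showed another order, with log2 ratios to the comparators of -0.79 with both genes, -0.22 with *CD4* only and -0.72 with *CD8A* only. Doublet calls were 12.2% with both genes, 8.82% with *CD4* only, 7.40% with *CD8A* only and 6.88% with neither, and mean *CD8B* UMIs were 11.9, 8.08, 10.1 and 6.31.

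Within the triple-detected cells the levels moved with depth. From the bin of cells with the fewest UMIs (2785 to 10639) to that with the most (24258 to 52810), *RAG1* was at 567, 241, 164 and 130 CPM, against 303, 86.6, 57.5 and 31.6 CPM in the matched comparators, so that it was higher in each bin. *ELOVL4* went along the same bins from 184 to 24.0 CPM, and *PTCRA* from 755 to 258 CPM. *NKG7* went from 107 to 304 CPM in the triple-detected cells, with log2 ratios to the comparators of -2.35, -2.10, -1.40 and -0.69. *ZNF683* had ratios of -3.28, -3.47, -1.77 and -0.10, and *CTSW* of -4.30, -2.83, -1.87 and -0.45. In the deepest bin, where 38.4% of the triple-detected cells were called doublets, *ZNF683* thus stood at 50.1 against 54.0 CPM. Without all doublet calls *NKG7* had a ratio of -1.50, *ZNF683* of -2.51 and *RAG1* of 1.32 over 510 pairs. G1 calls made up 51.0% of the shallowest and 7.53% of the deepest bin of triple-detected cells.

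**Figure D4:**
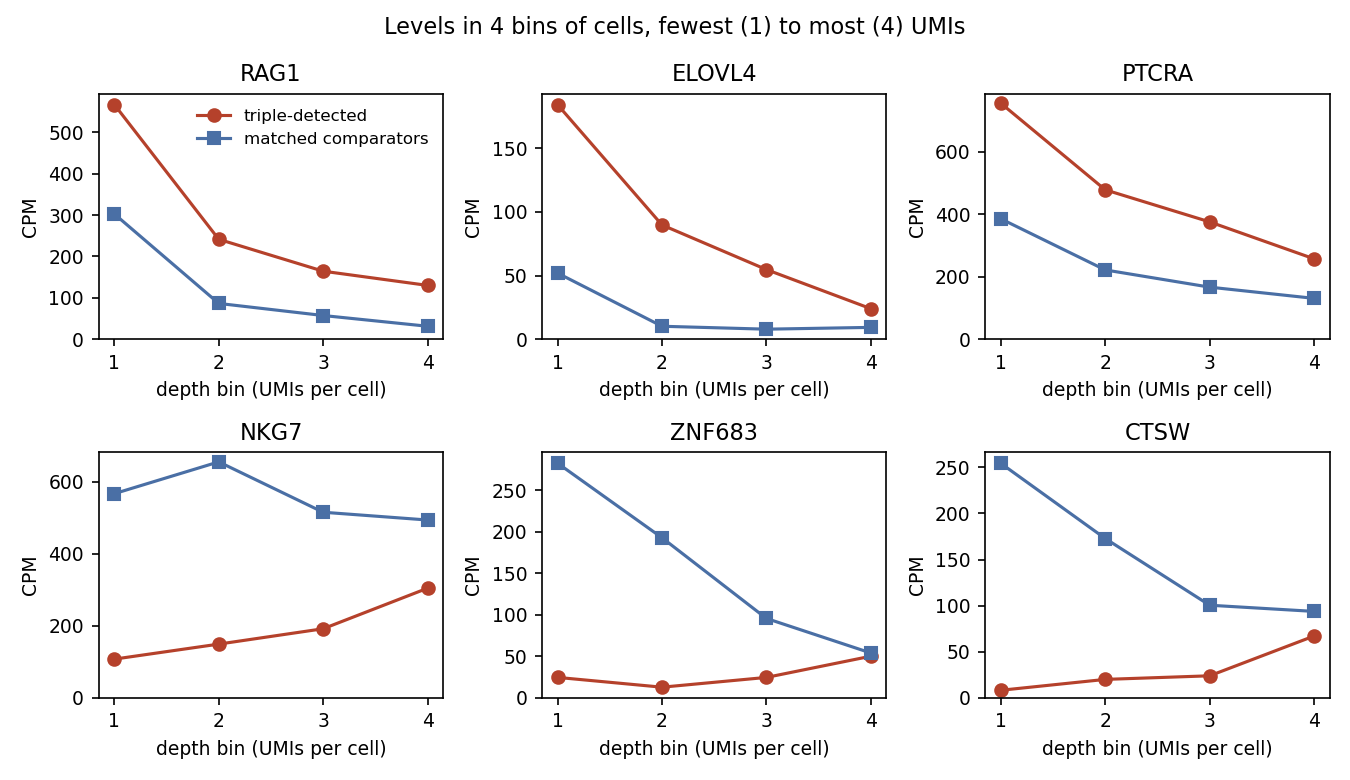
Level in CPM (vertical, from 0) of 6 genes in 4 bins of triple-detected cells by UMIs per cell, from the fewest to the most (horizontal) and in their matched comparators, each of 145 or 146 cells. *RAG1*, *ELOVL4* and *PTCRA* lie above the comparators in every bin, and *ZNF683* goes from 24.6 against 283 CPM in the first bin to 50.1 against 54.0 CPM in the last.

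Recombinase RNA split the triple-detected cells. At 5000 UMIs per cell, 366 of 564 (64.9%, 60.8 to 68.8%) held a *RAG1* or *RAG2* UMI, against 181 of 563 comparators (32.1%, 28.3 to 36.2%), 55.2% of *CD4* only cells and 47.9% of *CD8A* only cells. The share in the triple-detected cells was 103 of 143 in G1, 107 of 192 in S and 156 of 229 in G2M. Cells with and without such a UMI had median depths of 14672.5 and 19567 UMIs, and 5886 genes were compared between them, of which 70 (1.19%) were at least 1.5-fold higher and 30 (0.510%) at least 1.5-fold lower. *ELOVL4* stood at 79.9 CPM with and 23.9 CPM without a RAG UMI, *ARPP21* at 270 and 110 CPM, *PTCRA* at 464 and 245 CPM and *JCHAIN* at 109 and 47.3 CPM. *KLF2* stood at 25.1 and 75.1 CPM, *GPR183* at 40.3 and 83.5 CPM, *OSM* at 16.1 and 44.8 CPM and *TRDC* at 599 and 831 CPM. *CD4* itself was at 107 and 73.5 CPM and *CD8B* at 721 and 496 CPM.

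**Figure D5:**
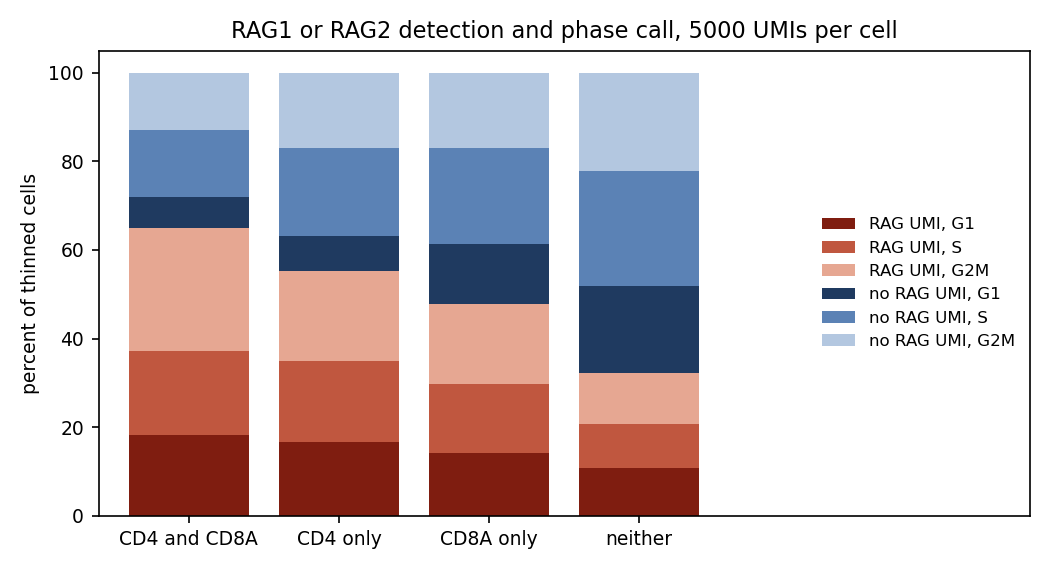
Share of thinned cells (vertical, percent) with a *RAG1* or *RAG2* UMI (red shades) or without one (blue shades), divided by phase call, in cells with *CD4* and *CD8A*, with *CD4* only, with *CD8A* only and with neither. The red part falls from 64.9% over 55.2% and 47.9% to 32.1%, and each phase holds cells of both kinds in all 4 groups. Before thinning, 508 of the 581 triple-detected cells held such a UMI.

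Triple-detected cells differed by phase in more than cell cycle genes. *RAG1* stood at 313 CPM in the 143 G1 cells, 133 CPM in the 192 S cells and 202 CPM in the 229 G2M cells, and *CD2* at 83.5, 35.6 and 33.0 CPM. *CCR9* stood at 67.7, 20.4 and 19.7 CPM. The G1 cells were also the shallowest, with a median of 10472 UMIs against 17131.5 in S and 20567 in G2M, and *CD8B* was at 918 CPM in them against 561 and 581 CPM. *DEFA6* was at 167 CPM in S, 52.5 in G1 and 49.3 in G2M. The cell with 229 UMIs was in S, and without it the level in S was 105 CPM.

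Cells with more *CD4* UMIs had more *RAG1* and less *NKG7*. The cells were divided here by UMIs of a rule gene without matching on depth, so the order is a description. The groups by *CD4* UMIs had median depths of 15485, 18234 and 17395 UMIs. In the 329, 137 and 115 triple-detected cells with 1, 2 and at least 3 *CD4* UMIs, *RAG1* was at 160, 206 and 308 CPM, *ARPP21* at 166, 211 and 312 CPM and *TRBC1* at 596, 621 and 933 CPM. *NKG7* was at 279, 177 and 153 CPM, and *TOP2A* at 530, 585 and 928 CPM. By *CD8A* UMIs (261 cells with 1, 140 with 2 and 180 with at least 3), *RAG1* was at 173, 222 and 232 CPM and *NKG7* at 249, 228 and 196 CPM. With both genes required at 2 UMIs or more, 154 cells were left, and *RAG1* had a log2 ratio of 1.97 and *NKG7* of -1.74 to their comparators.

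*PTCRA* and *TRAC* were seen in the same cells less often than their frequencies give in the comparators. In the triple-detected cells the shortfall was small, and whether it exceeds counting error was not tested. At 5000 UMIs per cell, 69.1% of triple-detected cells held *PTCRA* and 14.2% *TRAC*, and 49 held both where independence gives 55.3, a ratio of 0.886. In the comparators 19 held both where independence gives 34.5, a ratio of 0.551. These counts are small and are given as a description.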

How the data were processed

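Cell Ranger 4.0.0 was run by the authors, on GRCh38, to align the reads of both libraries and to count UMIs. The deposited values are raw UMI counts of 36601 genes for every barcode, neither normalized nor filtered. A barcode was kept as a cell with 1000 to 7000 genes detected and a mitochondrial share of UMIs up to 18%, after the limits of the study's methods, read here as detected genes. The 8929 day 14 cells had a median of 15029 UMIs out of 169758367 in the library.

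Triple-detected cells were matched 1:1 to the nearest comparator in total UMIs, within 10%. Summed UMIs of a group were scaled to CPM, and their 95% intervals are exact Poisson limits. Log2 ratios had 5 CPM added, and genes at 20 CPM or more in either group were compared, without the 4 rule genes. Shares have exact Clopper-Pearson intervals, from cells thinned at random to 5000 UMIs, which left out 17 triple-detected cells and 18 matched comparators. Phases were called in scanpy 1.11.5 with the Seurat gene lists. Scrublet's own threshold called 0 day 14 cells, so the 638 highest scores were called, 0.8% for each 1000 cells, and kept. Tools were Python 3.11.15, numpy 2.4.6, scipy 1.17.1 and pandas 2.3.3, and the steps were tested on simulated data. No paired analysis was possible because each day has 1 library.

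The members and lists were chosen with earlier results of these data known. Named were the rule genes, the 15 highest and 15 lowest ratios, genes of lists of up to 12 genes, up to 6 with the largest ratios of longer lists, and the markers. Other genes named beside them, such as *TOP2A*, *CD1E*, *NR4A1* or *TCF7*, were chosen after their values were seen. Coordinates are from GENCODE and RefSeq on GRCh38. The day 10 library served for the count of cells only. *CD4* and *CD8B* starts are not shown. An item of the marker and cortical lists is not reported here.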

Additional observations from a re-analysis of the deposited data

How the results depend on the processing

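Of 675 values of single genes under 18 alternatives, 8 changed sign, 6 of them past the 1.5-fold limit in all pairs, and of 143 list medians 8 changed sign, none of them past it. Among values past the limit the sign changed for *GPR183* (0.27), *CLIC3* (0.31), *GATA3* (0.69) and *KLF2* (0.27) in cells without a UMI of 7 NK/NKT genes, and for *LINC01226* (-0.31) and *LINC00632* (-0.038) in cells without a RAG UMI. Below the limit it changed for *MKI67* (-0.23, rule after thinning) and *TRAC* (-0.15, cells without a RAG UMI). The medians that changed sign were those of mitosis in 3 settings, of V(D)J recombination (-0.079) and histones (-0.0015) with the rule after thinning, of V(D)J recombination in cells with a RAG UMI (-0.049), and of E proteins and ID (-0.11) and the receptor chains (-0.15) in cells without one. Of 639 alternative values of genes past the limit in all pairs, 56 fell under it with the same sign, 17 in cells with a RAG UMI, 15 with *CD8B* matched, 14 in cells without a UMI of 7 NK/NKT genes, 4 in cells without a RAG UMI, 3 with the rule after thinning, 2 with 20 CPM added and 1 with at least 4 *CD8B* UMIs. The cause was not tested.

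The count of triple-detected cells was 154 with at least 2 UMIs of *CD4* and of *CD8A*, and 141 with the rule applied after thinning. Against 98 genes (1.67%) higher and 83 (1.42%) lower, the first setting gave 231 (3.88%) and 133 (2.24%) of 5949 genes. The second gave 375 (6.13%) and 305 (4.99%) of 6114 genes. Both settings had fewer triple-detected cells. The setting after thinning had no matching, with median depths before thinning of 10439 UMIs in members and 16297 in comparators. At least 4 *CD8B* UMIs gave 59 (1.01%) and 41 (0.702%), matching on *CD8B* 28 (0.483%) and 11 (0.19%), and 20 CPM added 49 (0.837%) each. Genes at 50 CPM or more gave 59 (1.99%) and 48 (1.62%) among 2965 genes, and no filter on level 123 (0.628%) and 155 (0.791%). Another 3 restrictions, all on UMIs before thinning, were chosen after seeing the data. Cells without a UMI of the 7 genes (*GNLY*, *NKG7*, *CTSW*, *ZNF683*, *KLRB1*, *PRF1*, *CXCR3*) gave 214 (3.52%) and 198 (3.25%) in 108 pairs. The triple-detected cells of these pairs had a median of 9363 UMIs. Cells with a RAG UMI gave 36 (0.616%) and 10 (0.171%), and cells without one 324 (5.45%) and 328 (5.52%) in 73 pairs. The other alternatives kept both counts within 1.5 times, and scaling by the median ratio shifted ratios by 0.014, with 88 (1.5%) higher and 89 (1.52%) lower. No paired analysis was possible because each day has 1 library. Replicates could not be left out for the same reason, and depth limits statements on *CD4* and *CD8A*, which rest on 1 UMI in many cells.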

Other observations

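*LGALS1*, encoding galectin-1, and *EMP3*, encoding a small membrane protein, were lower in the triple-detected cells than in their matched comparators, and both were chosen after their values were seen. *LGALS1* ranged from 0 to 93 UMIs with a median of 4, against 0 to 158 with a median of 11, and stood at 515 against 968 CPM (log2 ratio -0.90). *EMP3* ranged from 0 to 26 UMIs with a median of 1, against 0 to 36 with a median of 3, and stood at 139 against 275 CPM (-0.96). Within the triple-detected cells *LGALS1* was at 471 CPM in cells with a RAG UMI after thinning and 583 CPM in cells without one. *EMP3* was at 112 and 180 CPM.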
